A study of Mus musculus with 47 samples.

Results

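The 10 genes described here, out of 55416 gene rows in the count tables, code for ligands and receptors of 2 axon guidance systems. They are the Robo family receptors Robo1, Robo2 and Robo3, the Slit ligands Slit1, Slit2 and Slit3, the netrin receptors Dcc, Unc5c and Unc5d, and the netrin Ntn1. They were taken by gene symbol and Ensembl identifier, and were chosen with the differences between male mice on the restricted and Control diets already known. The male differences are therefore a description. Their p-values are not printed, and where a gene is said to be called in males, this only places it among all genes at the same threshold and is no evidence independent of the choice. The libraries hold brain RNA of 3xTg mice, which model Alzheimer's disease and carry mutant APP, tau and presenilin, and every group carried these transgenes. Males and females entered the study at 6 months of age and spent 9 months on an amino acid-defined Control diet or on the same kind of diet restricted in isoleucine (IleR), leucine (LeuR) or valine (ValR). Counts were analysed from 14 males (Control 4, IleR 3, LeuR 3, ValR 4) and 23 females (Control 6, IleR 5, LeuR 6, ValR 6). Of the 47 libraries in the labels, 10 male libraries have no column in the count tables and are not analysed here. The labels name 6 males per diet.

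Slit proteins are secreted ligands that bind Robo1 and Robo2 and repel growing axons, for example at the midline of the nervous system. Robo3 is the divergent receptor of the family, which lets commissural axons cross the midline and which binds NELL2 rather than Slits in mammals. Netrin 1, made from Ntn1, attracts axons through DCC and repels them when an UNC5 receptor takes part. In the adult brain these genes stay expressed in patterns that differ between regions and neuron types.

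Library totals ranged from 10672599 to 25722333 counts, with medians of 16001013 in males and 15979541 in females. Levels are given as CPM, counts scaled to the library total after TMM normalization, and log2 fold changes come from edgeR's quasi-likelihood fit of the 4 diets of a sex. A gene was called when its adjusted p-value was under 0.05 over all genes tested, 22197 in males and 20344 in females. All 10 genes passed the filter on low counts in both sexes. Each library is called by its diet and label number. The label says brain and the extraction text says liver. The 6 liver genes checked summed to at most 2.35 CPM in any male and 10.04 CPM in any female library, and the 8 genes common to neurons summed to between 4375 and 7288 CPM.

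The male libraries also differed in genes that mark brain regions. The 14 forebrain markers summed to between 1557 and 3948 CPM in Control-fed males, between 334 and 479 with IleR, between 186 and 736 with LeuR and between 233 and 292 with ValR. The 13 cerebellum markers summed to between 52.8 and 134.8 CPM in Control-fed males, between 1480 and 3874 with IleR, between 283 and 1577 with LeuR and between 1588 and 4830 with ValR. Of the 18 brainstem and spinal cord markers, 11 were at 0 in Control-fed males, and 6, 11 and 15 of the 16 tested were called higher with IleR, LeuR and ValR. A mean log2 CPM over the forebrain markers, called the forebrain marker level below, was between 5.64 and 6.91 in Control-fed males and between 0.64 and 4.55 in males on the restricted diets, without overlap. Of the markers of other regions and cell types, 4 of 8 striatum genes were called lower with IleR and with ValR, and 2 of 6 microglia genes with IleR and 4 of 6 with ValR. In each of the habenula, thalamus, astrocyte and neuron lists, at most 2 genes were called lower and 1 higher per diet. The 7 habenula genes summed to between 38.5 and 67.8 CPM in Control-fed males. With IleR, LeuR and ValR the ranges were 26.0 to 37.1, 25.0 to 41.7 and 24.95 to 40.7. The 8 neuron genes summed to between 5241 and 7133 CPM in Control-fed males, and to 4393 to 5168, 4459 to 5521 and 4718 to 5619. The 6 microglia genes summed to between 248 and 285 CPM in Control-fed males, between 170 and 264 with IleR, between 203 and 231 with LeuR and between 140 and 227 with ValR. The 6 oligodendrocyte genes, of which 0 were called, summed to between 4561 and 9564 CPM in Control-fed males and between 10220 and 14940 with IleR, between 6433 and 18030 with LeuR and between 9514 and 16350 with ValR. The 4 blood genes reached 18380 CPM in LeuR 19, against at most 6349 in the other males. The part of these cell types in the results was not tested. In bulk tissue, fewer cells of a type and less RNA per cell cannot be told apart, and in these males diet and the forebrain marker level cannot be told apart.

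Promoter sequences are shown for the receptors that were lower in every restricted male group, Robo2 and Robo3, and, beside them, for the ligand Slit2, which was not called for any diet. For Robo2, which has 3 windows in the table, the one at the start of the annotated gene is shown. They come from RefSeq on GRCm38.p6 and hold the bases before the annotated start, up to the first exon base of the gene annotation. Of the 10 genes, 5 have bases in such a window, and that of Slit3 holds 18. Capitals mark matches, on either strand, to the GC box GGGCGG, the E-box letters CAGCTG and also CATCTG, and the TATA box letters TATAAA, and the matches do not overlap. Robo2 lies on the minus strand, chr16:74411826-74412075, Robo3 on the minus strand, chr9:37433247-37433425, and Slit2 on the plus strand, chr5:47982905-47983137.
Robo2: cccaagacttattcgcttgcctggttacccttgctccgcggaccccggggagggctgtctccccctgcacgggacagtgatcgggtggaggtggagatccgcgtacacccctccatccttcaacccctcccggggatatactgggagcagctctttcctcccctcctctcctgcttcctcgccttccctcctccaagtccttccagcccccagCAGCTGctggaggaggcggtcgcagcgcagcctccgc
Robo3: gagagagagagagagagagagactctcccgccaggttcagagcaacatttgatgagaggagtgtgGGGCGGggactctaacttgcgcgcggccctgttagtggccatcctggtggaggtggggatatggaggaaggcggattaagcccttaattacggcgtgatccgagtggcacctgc
Slit2: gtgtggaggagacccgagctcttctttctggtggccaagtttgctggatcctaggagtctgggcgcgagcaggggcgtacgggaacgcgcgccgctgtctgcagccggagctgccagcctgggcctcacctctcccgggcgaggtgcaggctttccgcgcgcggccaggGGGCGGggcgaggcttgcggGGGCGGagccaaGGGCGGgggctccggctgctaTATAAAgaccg

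The Robo2 window holds 1 CAGCTG, a motif present in 13.0% of the 32851 RefSeq promoter windows of 250 bases. The Robo3 window of 179 bases holds 1 GGGCGG, present in 20.9% of windows of that length. The Slit2 window of 233 bases holds 3 GGGCGG and 1 TATAAA, present in 30.3% and 11.9% of windows of that length. No CATCTG is in any of the 3 windows. The GC content was 65.6%, 58.1% and 70.4% for Robo2, Robo3 and Slit2, against a median of 52.4% over all windows of 250 bases. These matches describe the sequences and were not tested as binding sites.

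Robo3 (ENSMUSG00000032128, chromosome 9 of GRCm38, 37415669 to 37433246) showed the widest separation of the 10 genes in males. It was at 55.6, 62.0, 11.3 and 71.8 CPM in Control 1, 3, 4 and 5. It was at 1.92, 1.77 and 1.42 CPM in IleR 13, 14 and 17, at 1.34, 2.15 and 3.50 in LeuR 19, 20 and 21, and at 1.01, 1.42, 0.885 and 1.47 in ValR 7, 9, 10 and 12. Every restricted library lay below every Control library, and Control 4 was the lowest of its group. Against Control, the log2 fold change was -4.87 (SE 0.565) with IleR, -4.43 (SE 0.551) with LeuR and -5.39 (SE 0.524) with ValR, which is 29.3-fold, 21.6-fold and 41.9-fold lower. The restricted libraries held between 14 and 62 Robo3 counts each, so these folds rest on few reads. Without Control 4 the values were -5.20, -4.77 and -5.72. The forebrain marker level of Control 4, 5.64, was also the lowest of the Control-fed males.

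Robo2 (ENSMUSG00000052516, chromosome 16, 73891839 to 74411825) codes for a Slit receptor of the canonical type. It was at 169.4, 122.3, 97.6 and 119.6 CPM in Control 1, 3, 4 and 5. The IleR libraries had 56.4, 61.3 and 45.98 CPM, the LeuR libraries 50.4, 51.2 and 55.9, and the ValR libraries 57.1, 71.5, 46.2 and 55.1. The restricted and Control groups did not overlap. This gave log2 fold changes of -1.22 (SE 0.182) with IleR, -1.28 (SE 0.182) with LeuR and -1.15 (SE 0.165) with ValR, or 2.33-fold, 2.42-fold and 2.21-fold lower.

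Robo1 (ENSMUSG00000022883, chromosome 16, 72308306 to 73046095), the neighbour of Robo2 on the chromosome and also a Slit receptor, was between 35.4 and 70.1 CPM in Control-fed males and between 50.5 and 71.2 CPM in restricted males. The groups overlapped for each diet. Its log2 fold change was 0.29 (SE 0.186) with IleR, 0.38 (SE 0.186) with LeuR and 0.09 (SE 0.173) with ValR. Robo1 was not called for any diet with all libraries, and without Control 4 it was called higher with LeuR (0.57). The 3 receptors were not tested against each other.

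**Figure D1:**
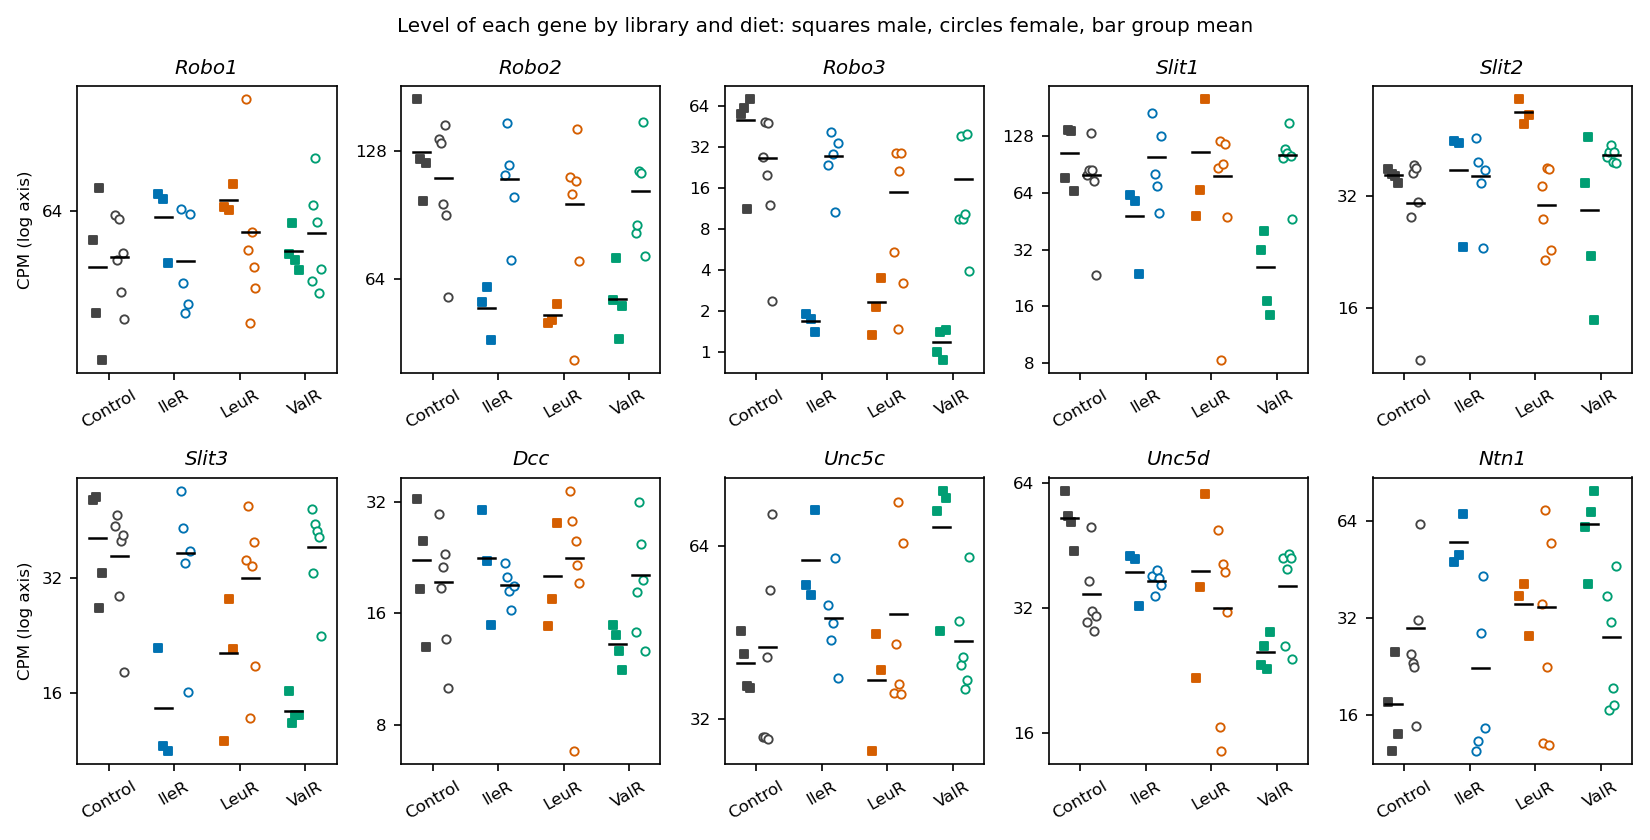
CPM of each of the 10 genes (vertical log axis) by diet (horizontal axis), with 1 point per library, squares for males, circles for females and a bar at the group mean. In males the restricted squares of Robo3 and Robo2 lie below all Control squares and those of Ntn1 lie above them, while the female circles of the 4 diets overlap for these 3 genes.

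Slit3 (ENSMUSG00000056427, chromosome 11, 35121224 to 35708507) was at 51.1, 51.95, 26.6 and 32.97 CPM in Control 1, 3, 4 and 5. It was at 21.0, 11.7 and 11.3 CPM in the IleR libraries, 12.0, 28.2 and 20.9 in the LeuR libraries and 16.2, 13.4, 14.04 and 14.02 in the ValR libraries. IleR and ValR libraries lay below every Control library, and LeuR 20 lay above Control 4. The log2 fold change was -1.47 (SE 0.313) with IleR, -1.003 (SE 0.307) with LeuR and -1.495 (SE 0.285) with ValR, and Slit3 was called for IleR and ValR. It was also called for LeuR with limma voom and DESeq2, and without Control 4, IleR 13 or LeuR 20.

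Slit1 (ENSMUSG00000025020, chromosome 19, 41600257 to 41743665) codes for a Slit expressed mainly in the nervous system. It was at 76.9, 137.8, 136.1 and 65.7 CPM in Control 1, 3, 4 and 5. The IleR libraries had 62.5, 58.5 and 23.8 CPM and the ValR libraries 32.0, 40.3, 17.1 and 14.3, all below the Control range. The LeuR libraries had 48.4, 66.6 and 202.3 CPM, so that LeuR 21 was above every Control library and LeuR 19 below. The log2 fold change was -1.11 (SE 0.522) with IleR, 0.02 (SE 0.505) with LeuR and -2.01 (SE 0.491) with ValR, and only the last was called. Slit2 (ENSMUSG00000031558, chromosome 5, 47983138 to 48307733) was between 34.6 and 37.7 CPM in Control-fed males. It was between 23.3 and 44.9 CPM with IleR, between 49.9 and 58.2 with LeuR and between 14.9 and 46.04 with ValR, with log2 fold changes of 0.05 (SE 0.302), 0.56 (SE 0.3) and -0.31 (SE 0.282) and no call. The LeuR libraries lay above the Control range and those of the other diets overlapped it.

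Ntn1 (ENSMUSG00000020902, chromosome 11, 68209364 to 68400823), the netrin ligand, moved opposite to Robo2 and Robo3. It was at 17.6, 12.4, 25.0 and 13.97 CPM in Control 1, 3, 4 and 5. The IleR libraries had 47.8, 50.1 and 66.95 CPM, the LeuR libraries 37.3, 40.7 and 27.99, and the ValR libraries 61.2, 40.8, 68.1 and 79.4. Every restricted library lay above every Control library, and Control 4 was the highest Control. IleR differed from Control by a log2 fold change of 1.67 (SE 0.253), LeuR by 1.04 (SE 0.253) and ValR by 1.86 (SE 0.242), or 3.19-fold, 2.05-fold and 3.62-fold higher. The LeuR call was lost without Control 1, 3 or 5 or without LeuR 19 or 20.

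Of the netrin receptors, Unc5d (ENSMUSG00000063626, chromosome 8, 28646717 to 29219636), of the UNC5 family, was at 61.2, 53.3, 51.5 and 43.8 CPM in Control 1, 3, 4 and 5 and at 23.3, 25.95, 22.8 and 28.03 in the ValR libraries, without overlap. Its log2 fold change with ValR was -1.07 (SE 0.234), and it was -0.43 (SE 0.25) with IleR and -0.42 (SE 0.251) with LeuR. The IleR libraries, at 42.7, 41.97 and 32.3 CPM, lay below the Control range. LeuR 21, at 60.2 CPM, lay within the Control range and the other LeuR libraries were at 21.7 and 35.96. Without LeuR 21 Unc5d was called lower with LeuR.
Unc5c (ENSMUSG00000059921, chromosome 3, 141465216 to 141834924), another UNC5 receptor, was at 45.5, 41.5, 36.5 and 36.3 CPM in Control 1, 3, 4 and 5. It was at 73.8, 45.4, 80.03 and 77.7 CPM in the ValR libraries and at 54.8, 52.6 and 74.0 in the IleR libraries. Every IleR library and all ValR libraries but ValR 9 lay above the Control range. The log2 fold change was 0.79 (SE 0.189) with ValR, which was called, 0.60 (SE 0.201) with IleR and -0.10 (SE 0.204) with LeuR. The exons of Unc5c overlap those of the antisense gene Gm15688, and the sources used here do not state whether counting used the strand. Dcc (ENSMUSG00000060534, chromosome 18, 71253634 to 72351069), the receptor for attraction, was between 12.96 and 32.5 CPM in Control-fed males and between 11.3 and 30.5 in restricted males, which overlapped for each diet. Its log2 fold change was 0.02 (SE 0.305), -0.15 (SE 0.307) and -0.76 (SE 0.287) with IleR, LeuR and ValR, none of them called by edgeR. With ValR, Dcc was called lower by DESeq2, and by edgeR without Control 5.

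In number, 3 of the 10 genes were called lower and 1 higher with IleR, where 8.68% of all genes tested were lower and 6.63% higher. With LeuR, 2 were lower and 1 higher, against 6.33% and 3.81% of all genes. With ValR, 5 were lower and 2 higher, against 12.4% and 11.1%. Groups did not overlap, below or above Control, for 5 and 2 of the 10 genes with IleR, 2 and 2 with LeuR and 5 and 1 with ValR, against 14.5% and 14.8%, 9.48% and 8.21%, and 13.6% and 12.7% of all genes. Nothing is read from these shares, since the male differences chose the genes. The median log2 fold change of the 10 genes was -0.21, -0.12 and -0.91 for IleR, LeuR and ValR, against 0.043, 0.053 and 0.032 over all genes. The 3 comparisons share the same Control libraries. In a fit that held only Control and LeuR, 0 genes were called (edgeR, 4607 at an unadjusted p under 0.05). With a region marker score, which subtracts the forebrain marker level from the mean of the 2 hindbrain levels (cerebellum, and brainstem with spinal cord), as a covariate, 2, 11 and 0 genes were called for IleR, LeuR and ValR (edgeR, 1988, 1838 and 2135 at an unadjusted p under 0.05), none of them among the 10. The score was at most -5.98 in Control-fed males and at least -4.26 in restricted males, so this fit cannot separate diet from the score. In this fit the log2 fold changes were below 0 for Robo2 (-0.98, -1.09 and -0.84) and Robo3 (-2.49, -2.67 and -2.38) and above 0 for Ntn1 (1.09, 0.57 and 1.12). The values for Robo3 were nearer to 0 than without the covariate. Slit3 was at -0.13, 0.058 and 0.28, and with ValR Slit1 was at 0.02 and Unc5d at 0.79, so that 3 of the 14 called values changed sign, as did 9 of the 16 that were not called.

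**Figure D2:**
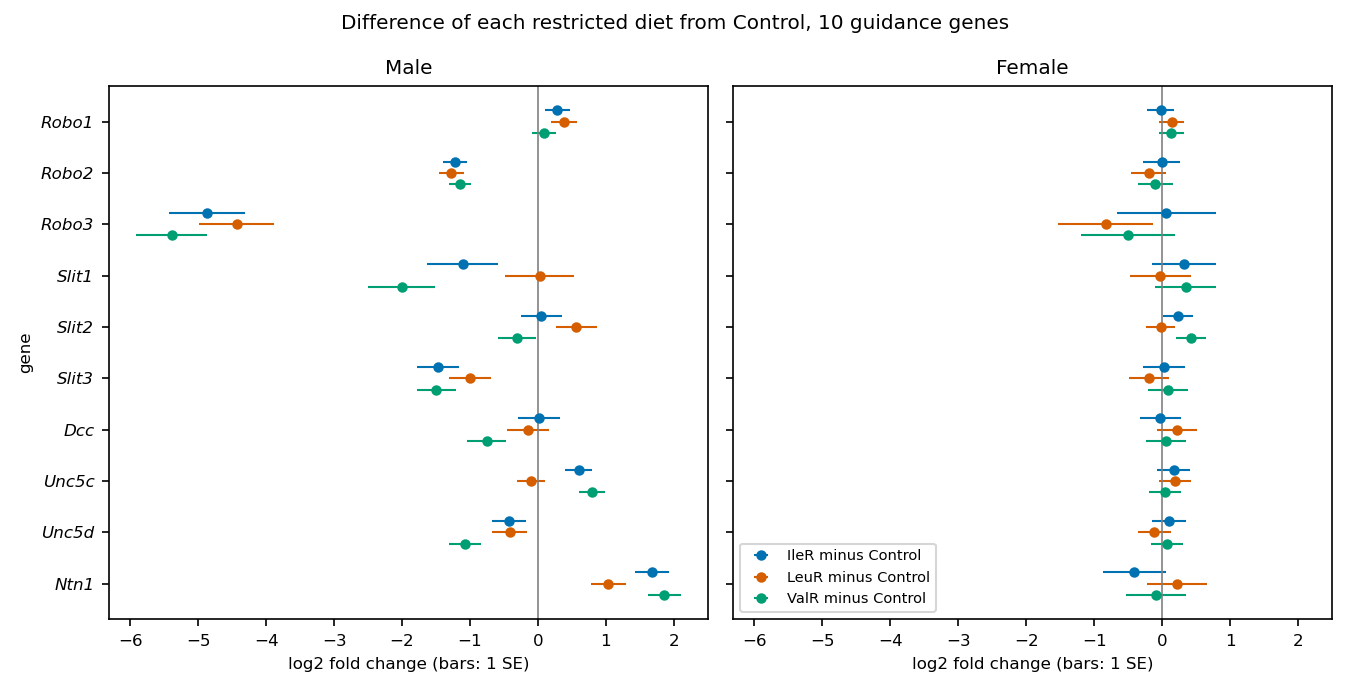
Log2 fold change of each restricted diet from Control for the 10 genes, males at left and females at right, with bars of 1 standard error. In males Robo3 lies between -5.39 and -4.43 and Ntn1 between 1.04 and 1.86, while every female value lies between -0.83 and 0.43.

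Between the restricted diets in males, no gene of the 10 was called for IleR against LeuR or IleR against ValR, where 0 of 22197 genes were called (2512 and 628 genes at an unadjusted p-value under 0.05, edgeR). For LeuR against ValR, Unc5c was lower with LeuR by a log2 value of -0.90 (SE 0.207), where 2.75% of all genes were called. Its LeuR libraries had 28.1, 45.03 and 38.8 CPM, below every ValR library, as for 9.42% of all genes. Of the 14 fits that left out 1 library, 4 kept this call (without Control 4, ValR 9, IleR 17 or LeuR 20) and 10 did not. Slit1 differed by 2.03 (SE 0.515) between LeuR and ValR and Ntn1 by -0.82 (SE 0.255), without a call. Slit1 was called in 5 of the 14 fits.

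In females the same genes were measured in libraries apart from the male ones, whose differences were known when the genes were chosen. Earlier results of these data were also known, so the female tests may not be fully independent of the choice. Of the 10 genes, 0 were called for any diet, where 0% of 20344 genes were called (edgeR's quasi-likelihood test). At an unadjusted p-value under 0.05 there were 577, 820 and 777 genes for IleR, LeuR and ValR and none of the 10. With limma voom 1, 0 and 0 genes and with DESeq2 8, 1 and 0 genes were called, none of them among the 10.
Robo3 was at 2.40, 23.4 and 48.6 CPM in Control-fed females (lowest, median and highest of 6), and at 10.6, 23.7, 28.2, 34.2 and 41.3 in the 5 IleR libraries. It was at 1.48, 13.3 and 29.02 CPM in LeuR-fed females and at 3.96, 9.93 and 40.03 in ValR-fed females, so that the 4 groups overlapped. Robo3 had a log2 fold change of 0.06 with IleR (95% interval -1.44 to 1.57, adjusted p = 1, edgeR), -0.83 with LeuR (-2.29 to 0.62, adjusted p = 0.968) and -0.50 with ValR (-1.94 to 0.94, adjusted p = 1). These intervals do not reach the log2 fold changes of the males, which have errors of their own, so this is no test between the sexes. In the edgeR test of that difference, given below, Robo3 was called for ValR alone.

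Robo2 was at 58.1, 114.6 and 147.2 CPM (lowest, median and highest) in Control-fed females, and its log2 fold changes were -0.004, -0.20 and -0.10 for IleR, LeuR and ValR, with 95% intervals that together ran from -0.74 to 0.56 (adjusted p from 0.968 to 1, edgeR). Ntn1 was at 14.8, 23.9 and 62.4 CPM in Control-fed females, with log2 fold changes of -0.41 (-1.37 to 0.55), 0.22 (-0.69 to 1.13) and -0.09 (-1.002 to 0.82) for IleR, LeuR and ValR (adjusted p = 1, 0.970 and 1, edgeR). The female intervals of Ntn1 for IleR and ValR lie below the male values of 1.67 and 1.86, and that for LeuR reaches above the male value of 1.04. The edgeR test of the difference between the sexes, given below, did not call Ntn1 for any diet. Slit3 had log2 fold changes of 0.03 (-0.62 to 0.67), -0.19 (-0.81 to 0.42) and 0.08 (-0.53 to 0.69) (adjusted p = 1, 0.968 and 1, edgeR).
Slit2 was the one gene of the 10 whose groups did not overlap in a female comparison. It was at 11.6, 33.8 and 38.6 CPM (lowest, median and highest) in Control-fed and at 39.2, 41.2 and 43.9 in ValR-fed females. The log2 fold change was 0.43 (95% interval -0.02 to 0.87), which did not pass the test (adjusted p = 1, edgeR), and groups were apart in this direction for 0.0737% of all genes. This log2 fold change was 0.26 without Control 30 and 0.24 without the 8 females of high cerebellum marker level that are described below, which include Control 30. In males the same difference was -0.31. The other 5 genes had female log2 fold changes between -0.11 and 0.35.

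For Robo3, Robo2, Slit3 and Ntn1 the spread among females was wide within each diet, and it moved with the region markers. The 13 cerebellum markers separated 8 libraries (Control 29 and 30, ValR 31 and 36, IleR 40 and 41, LeuR 45 and 48), whose cerebellum marker level (mean log2 CPM) was 5.70 or more, from 15 libraries at 3.05 or less. Each diet had 2 libraries in the first set. LeuR 45, the female library with the lowest forebrain marker level at 1.08, had the lowest Robo3 at 1.48 CPM, the lowest Robo2 at 41.3 CPM, the lowest Slit1 at 8.34 CPM and the highest Ntn1 at 69.2 CPM of all females. The next female library was at 4.39, and correlations with the forebrain marker level were therefore taken over the other 22 female libraries, with two-sided permutation tests adjusted over 40 pairs of gene and marker level.
Over these 22 libraries, Robo3 rose with the forebrain marker level (Pearson r = 0.896, Spearman rho = 0.843, permutation p = 1e-05 for each, which is the smallest that 100000 resamples can give, adjusted p = 0.0002 for each). Robo2 did so with r = 0.841 and rho = 0.859 (permutation p = 1e-05 for each, adjusted p = 0.0002 for each), and Slit3 with r = 0.839 and rho = 0.616 (permutation p = 5e-05 and 0.00299, adjusted p = 0.0005 and 0.0133). Ntn1 fell, with r = -0.842 and rho = -0.736 (permutation p = 2e-05 and 0.00011, adjusted p = 0.000267 and 0.00147), as did Unc5c with r = -0.699 and rho = -0.532 (permutation p = 0.00027 and 0.0117, adjusted p = 0.0018 and 0.0334). Without the 2 libraries farthest from the median, r was 0.820 for Robo3, 0.747 for Robo2, 0.730 for Slit3 and -0.752 for Ntn1. For Unc5c it was -0.496 and no longer passed (adjusted permutation p = 0.0756, 20 libraries).
For Slit1 and Slit2, r was 0.719 and 0.656 (permutation p = 0.00037 and 0.00172, adjusted p = 0.00211 and 0.00573), with rho of 0.301 and 0.290 (permutation p = 0.173 and 0.192, adjusted p = 0.257 and 0.274). Without the 2 farthest libraries their r was 0.474 and 0.263 and neither passed (adjusted permutation p = 0.0883 and 0.335). Robo1, Dcc and Unc5d had r of 0.024, 0.375 and 0.079 (permutation p = 0.918, 0.0871 and 0.725, adjusted p = 0.918, 0.152 and 0.763), with rho of -0.095, 0.252 and 0.027 (permutation p = 0.673, 0.255 and 0.906, adjusted p = 0.727, 0.334 and 0.926). With the diet means subtracted, Dcc had r = 0.493 and passed (adjusted permutation p = 0.0431).

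**Figure D3:**
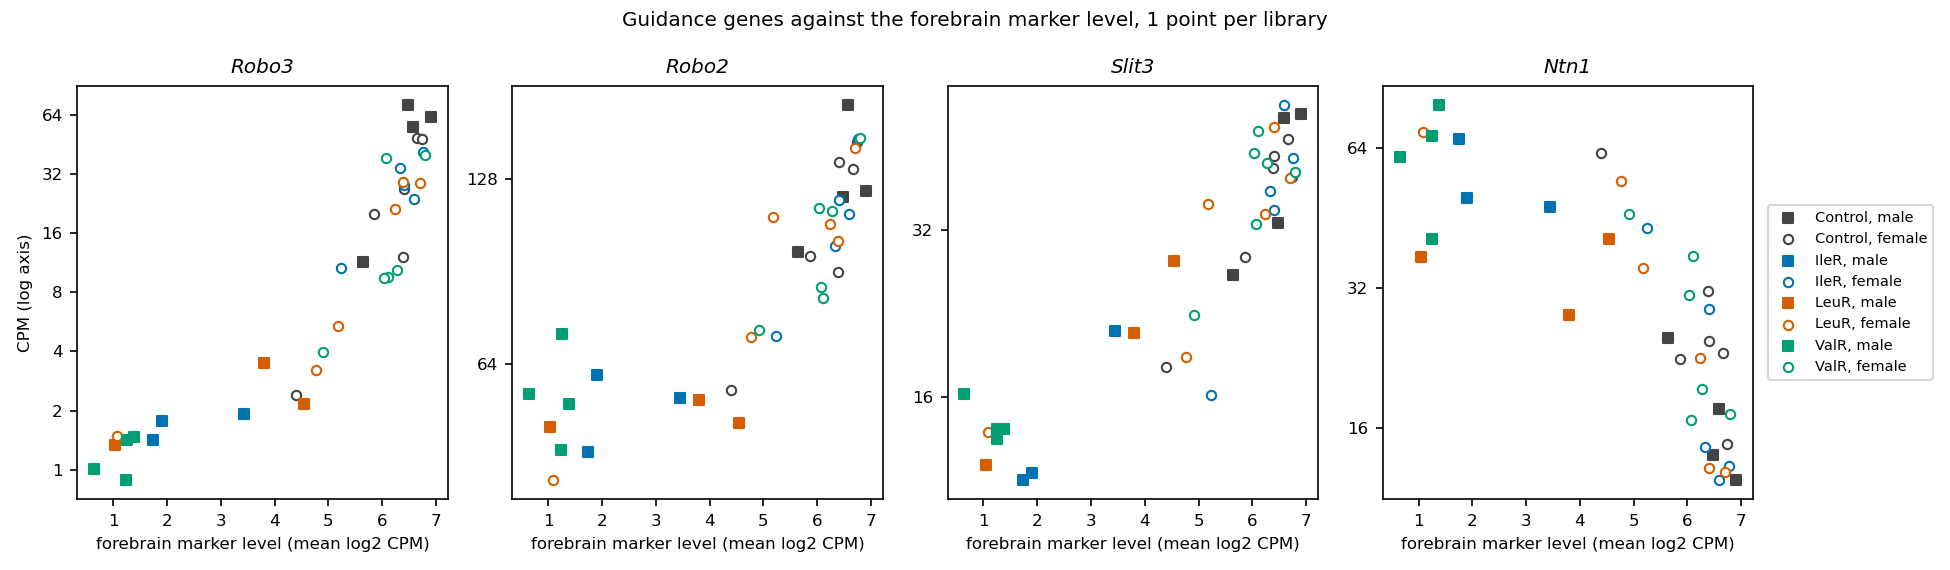
CPM of Robo3, Robo2, Slit3 and Ntn1 (vertical log axis) against the forebrain marker level (horizontal axis, mean log2 CPM of 14 forebrain genes), with 1 point per library, squares for males, circles for females and colour for diet. Control-fed males sit at levels of 5.64 or more and restricted males at 4.55 or less, and the female library LeuR 45 sits among the restricted males at 1.08.

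Within the 8 libraries of high cerebellum marker level, Ntn1 rose with that level (r = 0.966, rho = 0.952, exact permutation p = 0.000198 and 0.00114, adjusted p = 0.00159 and 0.00913) and so did Unc5c (r = 0.937, rho = 0.929, exact permutation p = 0.000595 and 0.00223, adjusted p = 0.00298 and 0.0112). Robo3 fell (r = -0.934, rho = -0.905, exact permutation p = 0.000893 and 0.00456, adjusted p = 0.00357 and 0.0183), as did Robo2 (r = -0.907, rho = -0.976, exact permutation p = 0.00159 and 0.000397, adjusted p = 0.00573 and 0.00397). Slit3 passed for r alone (r = -0.797, rho = -0.786, exact permutation p = 0.0196 and 0.0279, adjusted p = 0.049 and 0.0588). Without the 2 farthest of the 8 libraries, r was 0.979 for Ntn1, 0.931 for Unc5c, -0.880 for Robo3, -0.865 for Robo2 and -0.913 for Slit3, and those of Robo3 and Slit3 no longer passed (adjusted exact permutation p = 0.0648 and 0.0726 over 6 libraries). Within the 15 libraries of low cerebellum marker level, 2 of the 10 genes passed, Slit3 (r = -0.780, rho = -0.657, permutation p = 0.00073 and 0.00993, adjusted p = 0.00324 and 0.0309) and, for r alone, Robo2 (r = -0.633, rho = -0.532, permutation p = 0.0106 and 0.0442, adjusted p = 0.0302 and 0.0842). Without the 2 farthest libraries their r was -0.526 and -0.352 and neither passed. Ntn1, Unc5c and Robo3 had r of 0.198, 0.203 and -0.258 there (permutation p = 0.483, 0.471 and 0.357), and Slit1 and Slit2 had r of 0.426 and 0.400 (permutation p = 0.115 and 0.136), against -0.738 for both in the 8 libraries (exact permutation p = 0.0339 and 0.0318, adjusted p = 0.0714 and 0.0707). With the diet means subtracted, Slit2 had r = -0.91 in the 8 libraries (adjusted exact permutation p = 0.000615), but each diet has 2 of them, so that the values form mirrored pairs and this p is too small. Among the 40 pairs, 16 had an adjusted permutation p for r under 0.05. In males the forebrain marker level of the Control and restricted groups did not overlap, while LeuR 21 lay below Control 4 in cerebellum marker level (1.88 and 1.93) and within the Control range in that of brainstem and spinal cord.
Leaving out the 8 libraries left 0 of the 10 genes called in females. The log2 fold changes of Robo3 were then -0.11, -0.77 and -0.55 with IleR, LeuR and ValR, and those of Ntn1 were -0.66, -0.02 and -0.02.

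The difference between the sexes in the diet effect was fitted in 1 model of the 37 libraries. For ValR, Robo3 differed by -4.89 (male minus female log2 fold change, SE 1.08) and Slit3 by -1.59 (SE 0.451), and both were called, where 4.25% of all genes were called. For IleR, 0 of the 10 were called, with 0.0979% of all genes, although Robo3 differed by -4.92 (SE 1.16) and Ntn1 by 2.06 (SE 0.642). For LeuR, 0 of the 10 were called, with 0.00445% of all genes, and Robo3 differed by -3.57 (SE 1.11). These differences hold the male values that chose the genes, and the forebrain marker level was at least 4.39 in all females but LeuR 45 and at most 4.55 in every restricted male. With limma voom neither of these genes was called for ValR.

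Levels of different genes were compared roughly, per kilobase of exon. The length used merges all annotated exons of a gene, 5921 bases for Slit1 and 25433 for Slit2, and is not that of the transcripts expressed. Before this division, mean CPM in Control-fed males was 127.2 for Robo2, 104.1 for Slit1, 36.3 for Slit2, 22.3 for Dcc and 17.2 for Ntn1. Per kilobase, Slit1 led in Control brains, with 17.6 ± 6.45 CPM per kilobase in males (SD, n = 4) and 13.6 ± 5.93 in females (SD, n = 6). In males it was followed by Robo2 (7.49 ± 1.78), Robo3 (7.33 ± 3.91), Slit3 (6.70 ± 2.11), Unc5d (5.69 ± 0.775), Robo1 (3.11 ± 0.936), Ntn1 (2.75 ± 0.897), Unc5c (2.09 ± 0.232), Dcc (1.69 ± 0.639) and Slit2 (1.43 ± 0.05), all in CPM per kilobase. From Robo2 to Unc5d and from Robo1 to Slit2, neighbours in this order differed by less than the larger of their SDs. In females the order after Slit1 was Robo2 (6.49 ± 2.03), Slit3 (6.00 ± 1.79), Ntn1 (4.75 ± 2.68), Robo3 (3.85 ± 2.77), Unc5d (3.74 ± 0.89), Robo1 (3.23 ± 0.51), Unc5c (2.23 ± 0.917), Dcc (1.48 ± 0.531) and Slit2 (1.204 ± 0.403). There, neighbours from Robo2 to Robo1 and from Unc5c to Slit2 differed by less than the larger of their SDs.

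The genes whose levels followed each guidance gene most closely were sought over the 23 female libraries, with the diet means subtracted, among 13877 genes. This likeness is a description, and 8 of the libraries differ from the rest in cerebellum markers. Robo3 was closest to Dusp3 (r = 0.959), Wnt10a (0.958) and Prickle1 (0.952), Robo2 to Ppp2r2b (0.979), Htr2a (0.978) and Chsy3 (0.972), and Robo1 to Nrp2 (0.930), Gaa (0.903) and Mesd (0.892). Slit1 was closest to St6galnac5 (0.972), Lrrtm1 (0.968) and Cpne6 (0.958), Slit2 to Tgfbr1 (0.888), Adam19 (0.880) and Col4a1 (0.879), and Slit3 to Tmsb4x (0.971), Pcdh1 (0.964) and Hebp1 (0.963). Ntn1 was closest to Bahcc1 (0.969), Nfyc (0.946) and Nsg1 (0.944), Dcc to Kcna4 (0.951), Csmd3 (0.947) and Asic4 (0.931), Unc5c to Zfp592 (0.958), Fnip2 (0.958) and Fgd4 (0.954), and Unc5d to Cntnap5a (0.859), Bscl2 (0.843) and Dnajc10 (0.838). In the 14 males the same pairs had r between 0.375 (Robo1 and Mesd, Unc5d and Dnajc10) and 0.901 (Slit1 and Lrrtm1) after the diet means were subtracted.

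A list of 87 other guidance genes was compared in the same fits. It too was chosen with male results known, so that its male values are a description and nothing is read from its shares. It holds 13 further netrin system genes, 21 partners of Slit and Robo, 31 semaphorins, plexins and neuropilins, and 22 ephrins and Eph receptors. In males 22 of the 87 were lower and 13 higher with IleR, 16 and 7 with LeuR, and 29 and 16 with ValR (adjusted p under 0.05, edgeR), which is 40.2%, 26.4% and 51.7% of the list, where 15.3%, 10.1% and 23.5% of all genes tested were called. Leaving out 1 library moved the higher count to between 5 and 18 for IleR (5 without IleR 17) and between 0 and 12 for LeuR (12 without Control 4, 0 without LeuR 19), and the lower count for LeuR to between 5 (without LeuR 19) and 21. All counts were 0 with the region marker covariate, as were those for LeuR in the fit of Control and LeuR alone (edgeR). The median log2 fold change of the list was -0.12, -0.02 and -0.08, against 0.043, 0.053 and 0.032 over all genes. With ValR, 11 of the 22 ephrin and Eph genes were lower and 3 higher, and 9 of the 31 semaphorin group genes were lower and 8 higher. In females 0 of the 87 were called for any diet (edgeR), with 0, 4 and 3 at an unadjusted p under 0.05.

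**Figure D4:**
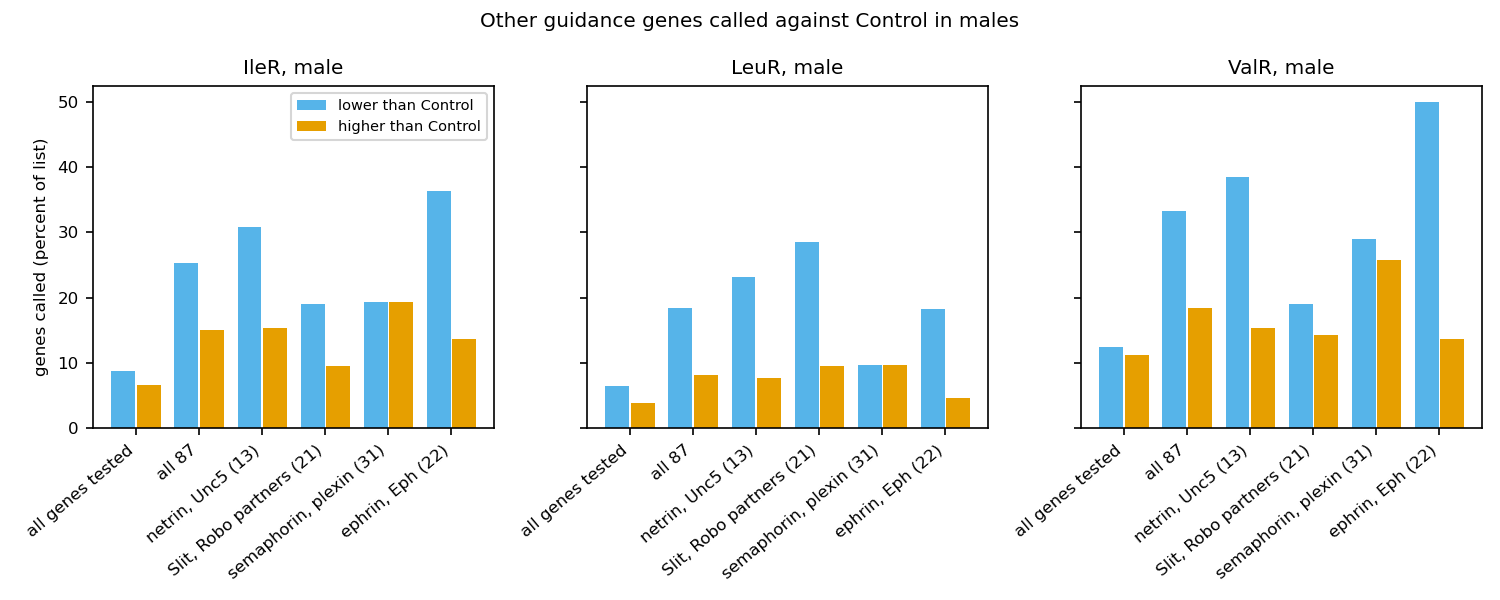
Percent of genes called lower (blue) or higher (orange) than Control in males, for all genes tested, for the 87 other guidance genes and for their 4 groups, with 1 panel per diet. The 87 genes stand at 40.2%, 26.4% and 51.7% called in all for IleR, LeuR and ValR and all genes at 15.3%, 10.1% and 23.5%. The list was chosen with male results known, and its counts for LeuR fall to 0 in the fit of 2 groups.

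The genes named next are the lowest and highest called of the list in each comparison, and are described without p-values. Epha4, an Eph receptor for ephrins of both classes, was at 212.8 ± 57.6 CPM in Control-fed males (SD, n = 4), 52.6 ± 15.3 with IleR (SD, n = 3), 60.5 ± 13.4 with LeuR (SD, n = 3) and 38.2 ± 2.55 with ValR (SD, n = 4). On the log2 scale the diets differed from Control by -2.02, -1.82 and -2.48. Plxnd1, a receptor for semaphorin 3E, fell by 1.82 with IleR and 1.85 with LeuR on the log2 scale. Ephb3 was lower with IleR (-1.81) and ValR (-2.29), Ephb6 with ValR (-1.91), and Nell2, which codes for a ligand of Robo3, with LeuR (-1.40).
Unc5b, the third UNC5 receptor gene described here, was at 47.5 ± 7.67 CPM in Control-fed males (SD, n = 4) and at 114.9 ± 12.6, 88.8 ± 26.8 and 122.7 ± 26.9 with IleR, LeuR and ValR. Its log2 fold changes were 1.27, 0.90 and 1.37. Epha8 was higher with IleR (1.49) and ValR (1.84), Ntn4, another netrin, with IleR (1.13), and Sema4g with LeuR (0.95) and ValR (1.30). Srgap1, which codes for a GTPase-activating protein that binds the inner part of Robo receptors, was higher with LeuR (0.76). The Control and restricted libraries did not overlap for these genes and diets, except for Sema4g with LeuR. The same forebrain and cerebellum marker differences as above stand beside these values.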

How the data were processed

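The authors deposited expected counts (RSEM estimates) per Ensembl gene and library, without normalization, from reads aligned to GRCm38.p5. An expected count divides reads that match several genes. The submitters' processing notes list R 3.4.3, edgeR and limma, and the aligner is not given in the sources used here. PolyA or total RNA, and whole brain or left hemisphere, are named in different places. Tables of the authors' own comparisons (log2 fold changes, p-values and adjusted p-values of each restricted diet against Control from limma voom) were not used.

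Expected counts were rounded and analysed with edgeR 4.0.16 in R 4.3.3 (limma 3.58.1 and DESeq2 1.42.0 as alternatives). A gene was kept where some diet group had 1 count or more in each of its libraries. The 4 diets of a sex were fitted together after TMM normalization, with the quasi-likelihood test and Benjamini-Hochberg adjustment at 0.05. Log2 CPM used a prior count of 2. Coordinates and exon lengths came from GENCODE M21 on GRCm38, in which 3333 of the 55416 identifiers have no model. The fits were tested on simulated data.

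The 10 genes and all lists were chosen with earlier results of these data known. The genes named were the 10, for each of them the 3 nearest genes over the female libraries, and in each male comparison the 3 lowest and 3 highest called genes of the guidance list, all at a mean log2 CPM of 1 or more. Alternatives were other size factors and filters, limma voom, DESeq2, fits of 2 groups, a region marker covariate and leaving out each library. Leaving out the 8 females of high cerebellum marker level was chosen after seeing the data. Libraries of a group differed by more than counting error in each of 73 pairs (smallest chi-square 9.09 per degree of freedom). The labels do not say that a library is a separate animal, so p-values measure the spread between libraries.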

Additional observations from a re-analysis of the deposited data

Results flagged for a closer look

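Ntn1 in female Control 30, at 62.4 CPM, stood apart from the other 5 Control-fed females, which ran from 14.8 to 31.6 CPM. The cerebellum marker level of that library, 7.84, was the highest of all female libraries. Robo1 in female LeuR 43, at 100.1 CPM, stood apart from the other 5 LeuR-fed females, which ran from 40.98 to 58.8 CPM. Its cerebellum marker level was 1.10 and its forebrain marker level 5.18, and the part of the markers was not tested. The gap was compared with Dixon's critical value in 60 sets of gene and group, of which 2 were beyond it, and chance gives about 1 in 20.

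The ValR effect differed between males and females for Robo3, by -4.89 on the log2 scale, and for Slit3, by -1.59, in the edgeR interaction test. The male differences had chosen these genes. Robo3 was called in each of the 37 fits that left out 1 library. Slit3 kept the call in 20 of them and lost it in 17, namely without male Control 1, 3 or 5, any of the 4 male ValR libraries, female Control 27, 29 or 30, female IleR 40 or 42, or female ValR 31, 32, 33, 34 or 35. With the region marker score as a covariate the differences were -0.72 and 0.05, and neither was called.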

How the results depend on the processing

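No paired analysis was possible because each library has a number of its own in the labels, so that the groups share none. In males Robo2 and Robo3 for every diet, Slit3 and Ntn1 for IleR and ValR, and Slit1, Unc5c and Unc5d for ValR were called in each of the 14 fits that left out 1 library. For IleR, 2 of the 10 genes were higher (Unc5c beside Ntn1) with DESeq2, upper quartile size factors or the 2 groups alone. For LeuR, the 2 groups alone gave 0 lower and 0 higher, also among the 87 guidance genes, and with the region marker covariate all of these counts were 0 for each diet. For LeuR against ValR, DESeq2 called 3 of the 10, no filter 2, filterByExpr 2, the 2 groups alone 0 and the covariate 0. For the sex difference DESeq2 called 4 (IleR), 1 (LeuR) and 6 (ValR), and for ValR voom called 0, no filter 1 and the covariate 0. The cause of these changes was not tested. Shares of all genes called under each alternative are not printed. These counts, and those below with 1 library left out, therefore say nothing particular about the 10 genes.

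The covariate changed the sign of 3 of the 14 called male values, namely Slit1 (0.02), Slit3 (0.28) and Unc5d (0.79) with ValR, and of 9 of the 16 others. Among the sex differences it did so for 1 of the 2 called (Slit3 with ValR, 0.05) and 14 of the 28 others, such as Robo2 (0.28), Slit1 (0.23), Unc5c (-0.32) and Ntn1 (-0.17) with ValR. None of the 10 genes passed the female test under any of these alternatives, and the reversals there were small. With voom the log2 fold change was 0.031 (Robo2), -0.045 (Slit3) and 0.027 (Dcc) for IleR and 0.03 (Slit2) for LeuR, with upper quartile size factors 0.004 (Slit2, LeuR) and with filterByExpr 0.002 (Robo2, IleR). With the covariate it was -0.066 (Slit3, IleR), 0.009 (Slit1, LeuR), 0.098 (Slit2, LeuR) and -0.189 (Ntn1, LeuR). Without the 8 females of high cerebellum marker level it was 0.076 (Robo1), -0.11 (Robo3) and -0.022 (Unc5d) for IleR, and 0.114 (Slit1) and -0.022 (Ntn1) for LeuR. Of the 40 correlations, 8 passed without the 2 farthest libraries. With diet means subtracted, Slit2 with cerebellum (-0.91, 8 libraries), Dcc with brainstem (-0.504) and Dcc with forebrain (0.493) passed in addition, and without the 2 farthest Slit3 with brainstem did (-0.661, adjusted permutation p = 0.0313). Those that changed sign were Dcc with cerebellum (0.068), Unc5d with brainstem (0.339, and 0.025 with diet means subtracted), and Robo1 (-0.315) and Unc5d (-0.03) with forebrain.

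Leaving out 1 library gave 1 to 2 of the 10 genes higher for IleR and 0 to 2 for LeuR, and 0 to 4 called for LeuR against ValR. The sex difference was called for 0 to 4 genes for IleR (4 without female IleR 41), 0 to 1 for LeuR (Robo3, without male Control 4) and 1 to 6 for ValR (6 without female LeuR 45 or female ValR 36). Among the 87 guidance genes, 5 to 18 were higher for IleR (5 without IleR 17, 8 without IleR 14). For LeuR 0 to 12 were higher (12 without Control 4, 0 without LeuR 19, and 1 to 4 without Control 1, 3 or 5, ValR 7, 10 or 12, IleR 14 or 17, or LeuR 20) and 5 to 21 lower (5 without LeuR 19). Female log2 fold changes that changed sign ran, for IleR, from -0.157 to 0.144 (Dcc), -0.106 to 0.055 (Robo1), -0.134 to 0.119 (Robo2), -0.177 to 0.333 (Robo3) and -0.147 to 0.218 (Slit3). For LeuR they ran from -0.106 to 0.571 (Ntn1), -0.076 to 0.226 (Robo1), -0.216 to 0.212 (Slit1), -0.186 to 0.063 (Slit2) and -0.278 to 0.038 (Unc5d). For ValR they ran from -0.119 to 0.216 (Dcc), -0.294 to 0.262 (Ntn1), -0.238 to 0.001 (Robo2), -0.057 to 0.195 (Slit3) and -0.084 to 0.254 (Unc5c). Male values that changed sign, none of them called with all libraries, ran from -0.273 to 0.253 (Dcc, IleR), -0.449 to 0.091 (Dcc, LeuR), -0.108 to 0.285 (Slit2, IleR), -0.054 to 0.277 (Robo1, ValR), -0.269 to 0.071 (Unc5c, LeuR) and -0.84 (without LeuR 21) to 0.374 (Slit1, LeuR). Correlations ran from -0.166 to 0.264 (Robo1, forebrain), -0.201 to 0.17 (Unc5d, brainstem) and -0.043 to 0.199 (Unc5d, forebrain).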
